A study of Mus musculus with 18 samples.

Results

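The 10 genes described here carry the first steps of interferon signaling and its brakes: the ligand gene Ifnb1, the receptor genes Ifnar1, Ifnar2, Ifngr1 and Ifngr2, the Janus kinase genes Jak1 and Tyk2, and the feedback inhibitor genes Usp18, Socs1 and Socs3. They were chosen by name, as 10 of the 55414 genes in the count table, and their symbols were matched to the gene identifiers of the table. RNA was measured in C2C12 myotubes, muscle fibers formed in culture when the mouse myoblast line C2C12 fuses in low-serum medium. All cells received siRNA at the start of a differentiation of 6 days, either non-targeting (siNtc), against Erk3 (siErk3, the gene Mapk6) or against Mk5 (siMk5, the gene Mapkapk5), and then spent 16 h without serum, in medium that held bovine serum albumin alone (BSA) or 0.5 mM palmitic acid bound to it (PA). This gave 6 groups of 3 libraries, named siNtc BSA, siErk3 BSA, siMk5 BSA, siNtc PA, siErk3 PA and siMk5 PA, 18 libraries in all. The siRNAs were pools against each gene, so single siRNAs cannot be told apart, and all libraries stem from 1 cell line without immune cells or vessels. The sources do not say whether replicate libraries come from separate cultures, so p-values measure only the spread between these libraries.

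Type I interferons such as interferon beta bind a receptor made of the Ifnar1 and Ifnar2 chains, which carry the kinases Tyk2 and Jak1, whereas interferon gamma binds the Ifngr1 and Ifngr2 chains, which carry Jak1 and Jak2. The kinases phosphorylate Stat proteins, and Stat complexes that hold Stat2 and Irf9 switch on interferon-stimulated genes. Several of these genes act back on the receptor: Usp18 removes the small protein Isg15 from its targets and displaces Jak1 from Ifnar2, Socs1 binds and inhibits Jak kinases, and Socs3 acts mainly on receptors that contain gp130.

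The levels of the receptor and kinase genes lay close together in all silencing groups, and none of the 6 passed the test between siErk3 or siMk5 and siNtc. Of all genes tested, only 0.0643% to 0.785% passed it with a fold change above 1.3, so this does not set the 6 genes apart. Usp18 stood apart, at a fitted 4.95-fold higher level in siErk3 BSA and a 2.09-fold lower level in siMk5 PA than in siNtc in the same medium. PA raised Usp18 and Socs1 in all 3 silencing conditions and shifted 3 receptor genes by at most 1.38-fold. Ifnb1 was counted in every PA library and in no BSA library, with at most 7 read pairs in a library.

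Total counts lay between 13041979 and 28496727 per library. Mapk6 was measured at 55.2 to 60.4 CPM (counts scaled to library size by the TMM method) in siErk3 BSA against 129.0 to 135.3 in siNtc BSA, and at 108.7 to 131.4 in siErk3 PA against 215.4 to 243.6 in siNtc PA. Mapkapk5 was rare, at 1.18 to 2.01 CPM in siMk5 BSA against 2.32 to 2.54 in siNtc BSA and at 2.17 to 2.43 in siMk5 PA against 2.52 to 3.92 in siNtc PA, and its differences did not pass the edgeR quasi-likelihood test with Benjamini-Hochberg adjustment (adjusted p = 0.469 in both media). All 9 myotube markers were detected, and 5, 2 and 2 of them were called lower with PA in siNtc, siErk3 and siMk5. Of the markers of other cells, the macrophage marker Adgre1, the lymphoid markers Ms4a1 and Siglech and the adipocyte markers Plin1 and Cidec had 0 counts in all libraries. The summed level of the 5 markers of proliferating myoblasts was 802.0 to 877.0 CPM in BSA and 329.0 to 436.0 CPM in PA, and that of the 4 fibroblast markers was 1410 to 1770 CPM in BSA and 441.0 to 778.0 CPM in PA. Macrophage markers summed to 1.72 to 2.7 CPM and endothelial markers to 0.125 to 1.12 CPM over all libraries, and adipocyte markers to at most 0.0423 CPM. The share of counts on 18S ribosomal RNA was 1.5% to 2.96% in siErk3 BSA, 2.56% to 7.17% in siNtc BSA, 8.39% to 12.87% in siMk5 BSA and 1.71% to 6.77% in the PA groups. In RNA from whole cultures, fewer cells of a type and less RNA per cell cannot be told apart.

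Upstream sequences are shown for 2 inhibitor genes that rose with PA, Usp18 and Socs1. Each is the 300 bases before the start of the gene's canonical transcript in GENCODE M39, read from GRCm39 on the gene's strand. Capitals mark GAAANNGAAA on either strand, the core of the interferon-stimulated response element that complexes with Stat2 and Irf9 bind. The Usp18 window is chr6:121222557-121222856 (plus strand), and that of Socs1 is chr16:10603876-10604175 (minus strand). The counted Usp18 gene starts at 121222865, close to its window. The counted Socs1 gene starts at 10603400, farther downstream than the GENCODE M39 transcript, and the bases between that start and the window were not searched.
Usp18: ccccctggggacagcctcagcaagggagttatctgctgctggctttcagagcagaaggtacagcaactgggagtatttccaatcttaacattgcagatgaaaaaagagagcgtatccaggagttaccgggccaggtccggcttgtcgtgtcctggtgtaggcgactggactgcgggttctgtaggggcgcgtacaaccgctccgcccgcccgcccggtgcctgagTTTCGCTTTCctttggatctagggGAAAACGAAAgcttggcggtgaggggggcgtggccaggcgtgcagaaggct
Socs1: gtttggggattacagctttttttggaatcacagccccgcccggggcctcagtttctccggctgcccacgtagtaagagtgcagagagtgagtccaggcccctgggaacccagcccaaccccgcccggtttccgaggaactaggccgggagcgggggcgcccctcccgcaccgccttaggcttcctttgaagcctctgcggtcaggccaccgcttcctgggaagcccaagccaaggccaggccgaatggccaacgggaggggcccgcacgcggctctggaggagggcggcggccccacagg
Usp18 held the letters GAAANNGAAA at 2 places, at bases 75 to 66 and 51 to 42 before the start. Socs1 held none. Over 21756 promoters of the same length, 4.08% held this motif. The palindromic TTCNNNGAA, the gamma-activated site bound by Stat dimers, was in neither window and in 9.2% of these promoters. Matches are given for these 2 windows only and were not set against the responses of the 10 genes. They are a description of letters, and binding was not measured.

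**Figure D1:**
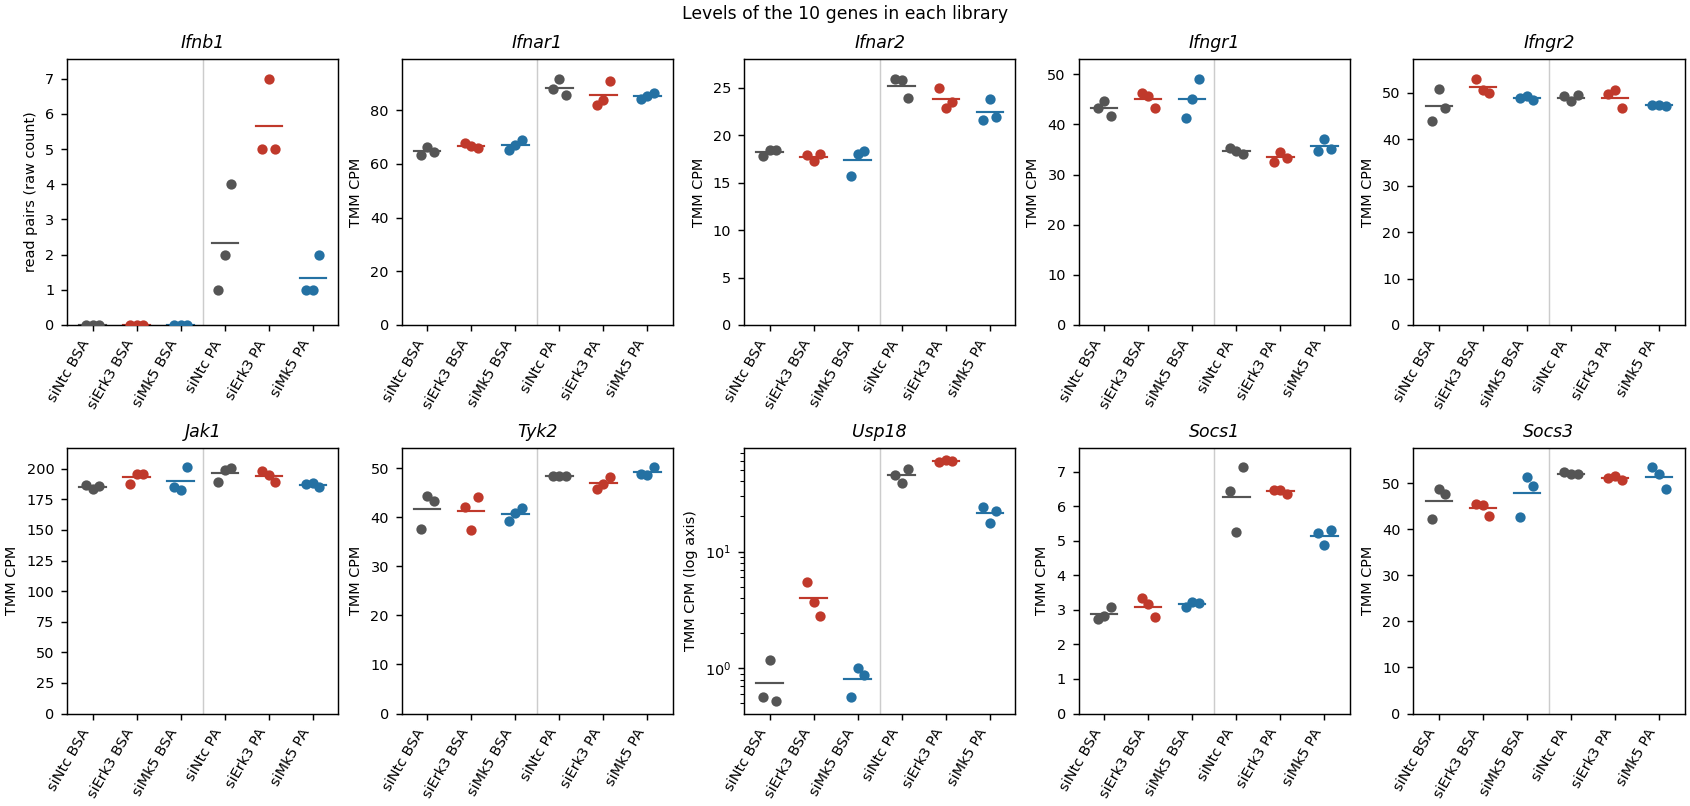
Levels of the 10 genes in each library, as read pairs for Ifnb1 and as TMM CPM for the others, with a log axis for Usp18; points are libraries, horizontal lines are means of 3 libraries, gray is siNtc, red siErk3 and blue siMk5. Usp18 reached 2.83 to 5.45 CPM in siErk3 BSA and 17.7 to 24.2 CPM in siMk5 PA, apart from siNtc in the same medium, while the receptor and kinase genes lay at like levels under the 3 siRNAs.

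The ligand gene Ifnb1 (chr4:88440262-88441011, minus strand) encodes interferon beta, which many cell types release once they sense foreign nucleic acids. It had 0 counts in all 9 BSA libraries. With PA it had 1, 2 and 4 counts in the siNtc libraries, 5, 7 and 5 in the siErk3 libraries and 1, 1 and 2 in the siMk5 libraries. Every PA library thus had at least 1 count, and the siErk3 PA libraries lay above all siNtc PA and siMk5 PA libraries. Summed over a group these are 0.109 CPM in siNtc PA (95% Poisson interval 0.044 to 0.226), 0.241 CPM in siErk3 PA (0.14 to 0.385) and 0.0634 CPM in siMk5 PA (0.0173 to 0.162), intervals that cover counting error only. With each BSA group set to a floor of 3 counts, the observed ratio of PA to BSA was 2.17 in siNtc, 6.05 in siErk3 and 1.31 in siMk5. These ratios leave out counting error in PA and are no lower bounds. The lower Poisson limits of siNtc PA and siMk5 PA lay under the upper limits of siNtc BSA (0.0621 CPM) and siMk5 BSA (0.0593 CPM). In siErk3 the lower limit of PA lay above the upper limit of BSA (0.049 CPM). The edgeR quasi-likelihood test with Benjamini-Hochberg adjustment called the difference in siNtc (adjusted p = 0.0182) and siErk3 (adjusted p = 0.000447) but not in siMk5 (adjusted p = 0.0652). Ifnb1 entered the test only through its PA counts, so it could differ in 1 direction only. Between siErk3 PA and siNtc PA the log2 fold change was 1.09 (SE 0.70, adjusted p = 0.744 by the edgeR test), and between siErk3 PA and siMk5 PA it was 1.83 (SE 0.78, adjusted p = 0.398 by the same test). At this depth no difference of Ifnb1 between silencing groups was detectable.

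Other interferon genes were barely counted. Of 20 genes for interferon alpha subtypes, epsilon, kappa, zeta, gamma and lambda, 14 had 0 counts in all 18 libraries and none reached 10 counts in total, with a largest total of 7. Ifna4, an early interferon alpha, had 3 counts in 1 siErk3 PA library and 1 in a siMk5 PA library. Ifng had 7 counts, spread over 4 of the 6 groups, 6 of them in BSA. The interferon alpha genes are near-identical copies, so single reads cannot be assigned to one of them with certainty. Pairs with a mapping quality under 3 were left uncounted, so these counts can be too low.

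The type I receptor genes rose with PA. Ifnar1 (chr16:91282126-91304329, plus strand), which binds Tyk2, was measured at 63.15, 66.3 and 64.5 CPM in siNtc BSA and at 88.0, 91.7 and 85.55 CPM in siNtc PA. Under siErk3 it was at 67.65, 66.7 and 65.8 CPM in BSA and 82.1, 83.9 and 90.9 CPM in PA, and under siMk5 at 65.2, 66.9 and 69.0 CPM in BSA and 84.4, 85.3 and 86.5 CPM in PA. All 9 PA libraries lay above all 9 BSA libraries. The log2 fold changes were 0.45 (SE 0.05) in siNtc, 0.36 (SE 0.05) in siErk3 and 0.35 (SE 0.05) in siMk5, with adjusted p-values of 1.99e-09, 9.31e-08 and 2.43e-07 by the edgeR test. Since a change was called at an adjusted p under 0.05 together with a fold change above 1.3, only the first was called, at 1.37-fold, against 1.28-fold and 1.27-fold. The interaction of silencing with PA did not pass the edgeR test for siErk3 (log2 -0.09, adjusted p = 0.875) or siMk5 (log2 -0.10, adjusted p = 0.757), so the 3 responses were not shown to differ.

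Ifnar2 (chr16:91169671-91202477, plus strand), the chain with the higher affinity for the ligand and the one that Usp18 and Jak1 bind, was at 17.8, 18.4 and 18.4 CPM in siNtc BSA and at 26.0, 25.8 and 23.95 CPM in siNtc PA. Under siErk3 it went from 17.9, 17.3 and 18.1 CPM in BSA to 24.96, 22.9 and 23.5 CPM in PA, and under siMk5 from 15.7, 18.01 and 18.4 CPM to 21.6, 23.8 and 21.9 CPM. The media did not overlap under any siRNA. The rise was called in siNtc (log2 0.47, SE 0.07, adjusted p = 1.2e-06 by the edgeR test) and siErk3 (log2 0.42, SE 0.07, adjusted p = 3.57e-06 by the edgeR test). In siMk5 it was 0.37 (SE 0.07) with an adjusted p of 4.51e-05 by the edgeR test, just under the fold change limit. It passed that limit when any of 4 siMk5 libraries was left out. Values lay between 0.291 and 0.41 without single libraries and between 0.281 and 0.379 in other settings. The adjusted p by edgeR or DESeq2 reached 0.0606 at most over all alternatives. Of the exonic bases of Ifnar2, 9.5% are shared on the same strand with the readthrough gene Gm21970, and read pairs there were left uncounted.

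The type II receptor genes did not follow. Ifngr1 (chr10:19467697-19485977, plus strand), the chain that binds interferon gamma and Jak1, fell with PA, from 43.2, 44.7 and 41.7 CPM to 35.4, 34.75 and 34.1 CPM in siNtc. It went from 46.3, 45.6 and 43.3 CPM to 32.5, 34.4 and 33.35 CPM in siErk3 and from 41.3, 45.0 and 49.1 CPM to 34.7, 37.1 and 35.2 CPM in siMk5. All 9 PA libraries lay under all 9 BSA libraries. The log2 fold changes were -0.315 in siNtc, -0.43 in siErk3 and -0.34 in siMk5 (SE 0.06 each, largest adjusted p = 5.05e-05 by the edgeR test), and only that in siErk3, at 1.35-fold lower, passed the fold change limit. Ifngr2 (chr16:91343960-91362511, plus strand), the signaling partner that binds Jak2, lay between 43.9 and 53.0 CPM in BSA and between 46.8 and 50.5 CPM in PA, and its PA differences of 0.05, -0.06 and -0.05 on the log2 scale did not pass the edgeR test (adjusted p = 0.497, 0.343 and 0.502).

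Between silencing groups the 4 receptor genes moved little. The largest difference from siNtc was that of Ifnar2 in siMk5 PA, at 21.6 to 23.8 CPM against 23.95 to 26.0 CPM. These groups did not overlap, and the log2 fold change of -0.17 (SE 0.07) had an adjusted p of 0.549 by the edgeR test. Ifngr2 differed by 0.11 (SE 0.05) in siErk3 BSA, where its range of 50.05 to 53.0 CPM overlapped that of siNtc BSA, with an adjusted p of 0.429 by the edgeR test.

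Neither kinase gene was called in any of the comparisons. Jak1 (chr4:101009564-101122479, minus strand), the kinase that both receptors share, lay between 182.8 and 201.2 CPM in BSA and between 185.0 and 200.7 CPM in PA. Its differences with PA were 0.08, 0.01 and -0.02 on the log2 scale (SE 0.04 each, smallest adjusted p = 0.117 by the edgeR test). Those with silencing lay between -0.07 in siMk5 PA and 0.06 in siErk3 BSA, with adjusted p-values of at least 0.682 by the edgeR test. In siErk3 BSA its 3 values of 187.8, 196.0 and 195.7 CPM were above those of siNtc BSA at 186.8, 183.4 and 185.7 CPM, a difference of 1.04-fold. Tyk2 (chr9:21015364-21042539, minus strand), the partner of Ifnar1, lay between 37.5 and 44.3 CPM in BSA and between 45.85 and 50.2 CPM in PA. Its PA differences of 0.20, 0.18 and 0.27 on the log2 scale (SE 0.06 each) had adjusted p-values of 0.00612, 0.00987 and 0.000337 by the edgeR test and stayed under the fold change limit. The differences of Tyk2 from siNtc under silencing were at most 0.046 in size, with adjusted p-values of at least 0.912 by the edgeR test.

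Usp18 (chr6:121222865-121247876, plus strand) was the member that moved most. In BSA it was measured at 0.562, 1.17 and 0.520 CPM in siNtc (8, 28 and 11 counts), at 5.45, 3.67 and 2.83 CPM in siErk3 (129, 87 and 79 counts) and at 0.567, 1.006 and 0.877 CPM in siMk5 (13, 20 and 17 counts). All siErk3 BSA libraries lay above all siNtc BSA and siMk5 BSA libraries, whereas siMk5 BSA lay within the range of siNtc BSA. With PA it was at 45.1, 38.5 and 50.9 CPM in siNtc, 58.1, 61.1 and 59.45 CPM in siErk3 and 24.2, 17.7 and 22.45 CPM in siMk5. The 3 PA groups did not overlap, in the order siMk5, siNtc, siErk3.

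In siErk3 BSA, Usp18 rose by 2.31 on the log2 scale (SE 0.30, adjusted p = 1.44e-05 by the edgeR test), a fitted 4.95-fold difference that was 2.03 to 2.86 on the log2 scale when single libraries were left out. In siErk3 PA the rise was 0.41 (SE 0.10, adjusted p = 0.045 by the edgeR test), 1.33-fold. This call was lost with DESeq2 (adjusted p = 0.669), with filterByExpr (adjusted p = 0.0778) and without siNtc PA library 1 (adjusted p = 0.12), siNtc PA library 2 (adjusted p = 0.431) or siErk3 PA library 2 (adjusted p = 0.237), over a range of adjusted p-values from 1.23e-07 to 0.669 in all alternatives. In siMk5 PA, Usp18 fell by 1.06 on the log2 scale (SE 0.11, adjusted p = 3.72e-07 by the edgeR test), a 2.09-fold lower level. In siMk5 BSA the difference was 0.03 (SE 0.44) with an adjusted p of 1 by the edgeR test, so no change was detectable at this depth. These comparisons share the siNtc libraries. Between siErk3 and siMk5, which do not use them, Usp18 differed by 2.28 (SE 0.29, adjusted p = 1.52e-05 by the edgeR test) in BSA and by 1.47 (SE 0.11, adjusted p = 4.49e-11 by the edgeR test) in PA.

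Other measures moved with siErk3 as well. The summed level of the 5 lymphoid markers was 1.14 to 2.11 CPM in siErk3 BSA against 0.378 to 0.843 CPM in siNtc BSA and 1.05 to 1.24 CPM in siErk3 PA against 0.404 to 0.456 CPM in siNtc PA. Only Cd3g of this list reached 10 counts in total, with 27, 41 and 59 counts in siErk3 BSA and 12, 10 and 8 in siNtc BSA. Ms4a1 and Siglech were at 0. Of the 9 myotube markers, 2 were called higher in siErk3 BSA, the developmental myosin genes Myh8 (505.3 against 341.8 CPM) and Myh3 (3194 against 2431 CPM), and 1 in siErk3 PA, Myh8 (365.5 against 240.5 CPM). With the 18S share as a covariate, the Usp18 difference in siErk3 BSA was 2.54 (adjusted p = 5.1e-06 by the edgeR test, from 4.36e-29 to 0.000694 over all alternatives) and that in siMk5 PA was -0.95 (adjusted p = 6.52e-06 by the edgeR test, from 6.73e-47 to 0.00033 over all alternatives). The part of the lymphoid and myotube markers in the Usp18 difference was not tested.

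PA raised Usp18 by 5.82 on the log2 scale in siNtc (SE 0.20), by 3.92 in siErk3 (SE 0.14) and by 4.73 in siMk5 (SE 0.22), with a largest adjusted p of 1.22e-17 by the edgeR test. These are 56.3-fold, 15.1-fold and 26.5-fold rises from different starting levels. The response in siErk3 was smaller than that in siNtc, with an interaction of -1.895 on the log2 scale (SE 0.32, adjusted p = 0.0407 by the edgeR test), a call that was lost when any of 5 single libraries was left out. For siMk5 the interaction was -1.09 (SE 0.46, adjusted p = 0.60 by the edgeR test).

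Socs1 (chr16:10600104-10603400, minus strand) was rare and rose with PA in all 3 conditions. It was at 2.74, 2.83 and 3.07 CPM in siNtc BSA and 6.43, 5.24 and 7.12 CPM in siNtc PA, at 3.34, 3.16 and 2.79 CPM in siErk3 BSA and 6.48, 6.48 and 6.35 CPM in siErk3 PA. Under siMk5 it was at 3.10, 3.22 and 3.20 CPM in BSA and 5.21, 4.89 and 5.31 CPM in PA, again without overlap between media. The rises were 2.16-fold in siNtc, 2.09-fold in siErk3 and 1.62-fold in siMk5, or 1.11 (SE 0.13), 1.06 (SE 0.12) and 0.70 (SE 0.13) on the log2 scale, with a largest adjusted p of 3.91e-05 by the edgeR test. The smaller response in siMk5 did not pass the interaction test (log2 -0.41, SE 0.19, adjusted p = 0.65 by edgeR). In siMk5 PA, Socs1 was 0.28 lower than in siNtc PA on the log2 scale (SE 0.115), a difference with overlapping groups and an adjusted p of 0.588 by the edgeR test.

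Socs3 (chr11:117856905-117860873, minus strand) was abundant and changed little. It lay between 42.15 and 51.3 CPM in the 9 BSA libraries and between 48.8 and 53.4 CPM in the 9 PA libraries. Its PA differences were 0.165 in siNtc (SE 0.06, adjusted p = 0.0282 by the edgeR test), 0.20 in siErk3 (SE 0.06, adjusted p = 0.00673 by the edgeR test) and 0.11 in siMk5 (SE 0.06, adjusted p = 0.162 by the edgeR test), all under the fold change limit. With silencing it differed by at most 0.06 on the log2 scale.

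**Figure D2:**
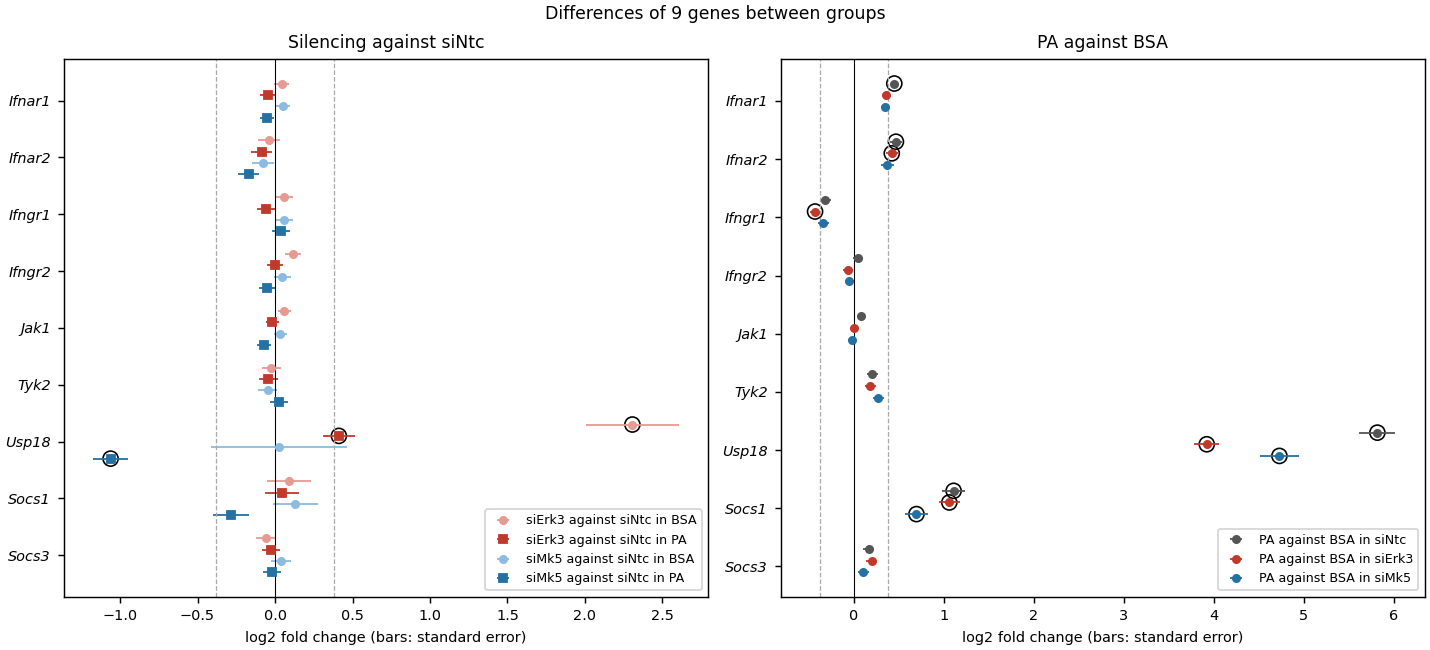
Log2 fold changes of 9 genes, without Ifnb1, in the silencing comparisons (left) and in PA against BSA (right) from the edgeR fit; bars are standard errors, circled points were called and dashed lines mark a 1.3-fold change. Usp18 is the only circled gene on the left, at 2.31, 0.41 and -1.06, and reaches 5.82 on the right, where Socs1, at 0.70 to 1.11, comes next.

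Counted over the members, 1 of 10 was called in siErk3 BSA against siNtc BSA, where 0.785% of the 21772 genes tested were called. It was 1 of 10 in siErk3 PA, against 0.556% of all genes, 0 of 10 in siMk5 BSA, against 0.0643%, and 1 of 10 in siMk5 PA, against 0.547%. The member called was Usp18 in all 3. In siMk5 BSA none of the members reached an unadjusted p under 0.05 either, and DESeq2 also called 0. Between siErk3 and siMk5, Usp18 was again the 1 member called, against 0.588% of all genes in BSA and 1.03% in PA. The interaction with PA called 1 member for siErk3 (0.0367% of all genes) and 0 for siMk5 (0.211%), where 2 members had an unadjusted p under 0.05 and DESeq2 called 0. Apart from Usp18 and Ifnb1, the log2 fold changes of the 8 other members lay between -0.06 and 0.11 in siErk3 BSA, between -0.09 and 0.04 in siErk3 PA, between -0.08 and 0.13 in siMk5 BSA and between -0.28 and 0.04 in siMk5 PA. The smallest adjusted p among them was 0.429 by the edgeR test.

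PA against BSA called 5 members in siNtc, where 30.6% of all genes were called, 5 in siErk3 against 32.1% and 2 in siMk5 against 29.7%. These counts hold Ifnb1 in siNtc and siErk3, which could only rise. With the adjusted p alone, 8, 8 and 6 members passed, against 45.1%, 47.1% and 44.3% of all genes. Groups did not overlap for 9, 8 and 8 of the 10 members, against 51.3%, 53.9% and 51.9% of all genes. Ifnb1 is among these members under each siRNA, and it had no counts in BSA and entered only through its PA counts. The median log2 fold change of the 9 members without Ifnb1 was 0.20, 0.20 and 0.27, and that of all genes was -0.025, -0.008 and -0.015. In the silencing comparisons, 2, 4, 1 and 5 of the 10 members did not overlap in siErk3 BSA, siErk3 PA, siMk5 BSA and siMk5 PA, against 17.4%, 12.1%, 12.3% and 12% of all genes.

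Levels per exon length put the genes on 1 scale. In siNtc BSA, Jak1 was highest at 25.6 ± 0.24 CPM per kb (SD, n = 3), followed by Socs3 at 16.0 ± 1.23 and Ifngr1 at 15.2 ± 0.53, whose ranges overlapped, by Ifngr2 at 12.51 ± 0.91 and by Ifnar1 at 10.9 ± 0.27. Tyk2 at 6.08 ± 0.52 and Ifnar2 at 5.48 ± 0.10 overlapped each other, and Socs1 at 0.991 ± 0.059 and Usp18 at 0.269 ± 0.13 were at the low end. In siErk3 BSA, Usp18 at 1.43 ± 0.48 CPM per kb overlapped Socs1 at 1.065 ± 0.096. In siNtc PA it had rank 3 at 16.1 ± 2.23 CPM per kb and overlapped Socs3 at 18.02 ± 0.086 and Ifnar1 at 14.9 ± 0.52. In siErk3 PA it had rank 2 at 21.35 ± 0.54, above Socs3 at 17.7 ± 0.16 without overlap, and in siMk5 PA it had rank 6 at 7.69 ± 1.21, where it overlapped Tyk2 at 7.17 ± 0.13. The order of Ifnar1 and Ifngr1 turned with the medium, with Ifngr1 higher in the 3 BSA groups and Ifnar1 higher in the 3 PA groups.

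**Figure D3:**
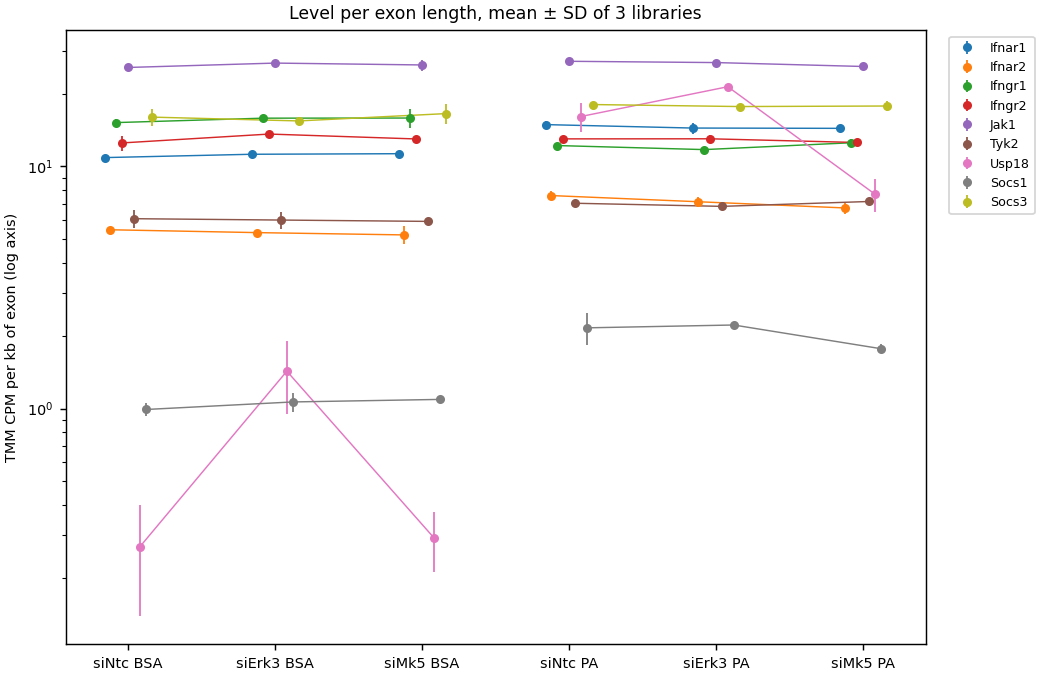
Level of 9 genes per exon length, in TMM CPM per kb on a log axis, as means with SD of 3 libraries in each group; lines join the groups of 1 medium. Usp18 goes from 0.269 in siNtc BSA to 16.1 in siNtc PA and 21.35 in siErk3 PA, while Jak1 stays between 25.6 and 27.2.

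Genes around the members in the pathway were counted over whole lists by the same calls. Of 9 other class II cytokine receptor and Jak kinase genes, 6 were tested and 0 were called in any silencing comparison, with 1, 1, 1 and 0 at an unadjusted p under 0.05. Over all genes, 0.0643% to 0.785% were called against siNtc. With PA, Il20rb, F3 (tissue factor) and Jak3 were lower in siNtc, at means of 2.61, 12.3 and 2.85 CPM against 5.32, 19.7 and 4.01 CPM in BSA. Of 6 Stat and Irf factors that act below the kinases, 2 were higher in siErk3 BSA and 3 were lower in siMk5 PA, against 0.588% and 0.491% of all genes. The median log2 fold changes of the 6 were 0.16 in siErk3 BSA, 0.11 in siErk3 PA, 0.005 in siMk5 BSA and -0.35 in siMk5 PA. Among them, Stat2 was higher in siErk3 BSA by 0.46 (SE 0.08) and Irf9 by 0.58 (SE 0.11), and both were lower in siMk5 PA, with log2 fold changes of -0.58 and -0.40. Neither was called in siErk3 PA or siMk5 BSA, and Stat3 was called in none of the silencing or PA comparisons. With PA, Stat2 was higher by 2.32 in siNtc, 2.00 in siErk3 and 1.71 in siMk5, and Irf9 by 2.16, 1.75 and 1.79.

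The ISG15 system, whose conjugates Usp18 takes apart, moved along the same comparisons. Isg15 itself was at 2.82 ± 0.13 CPM in siNtc BSA, 8.22 ± 2.96 in siErk3 BSA and 2.87 ± 0.44 in siMk5 BSA, and at 97.1 ± 8.05, 123.6 ± 2.31 and 49.9 ± 10.1 CPM in the 3 PA groups (SD, n = 3). It rose by 1.52 on the log2 scale in siErk3 BSA (SE 0.225, adjusted p = 9.92e-05 by the edgeR test) and differed by -0.96 in siMk5 PA (SE 0.11, adjusted p = 8.52e-07 by the edgeR test). The ligase gene Herc6 was called in the same comparisons, at 0.73 and -0.82, and in siErk3 PA at 0.39. The activating enzyme gene Uba7 and the conjugating enzyme gene Ube2l6 were lower in siMk5 PA, at -0.79 and -0.64. In all, 2 of 5 were higher in siErk3 BSA, 1 in siErk3 PA, 0 in siMk5 BSA and 4 were lower in siMk5 PA, with medians of 0.35, 0.345, 0.00 and -0.79 against 0.02, 0.00, 0.01 and 0.00 over all genes.

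Of 12 interferon-stimulated genes, 11 were higher in siErk3 BSA and 6 in siErk3 PA, 0 were called in siMk5 BSA (1 at an unadjusted p under 0.05), and 12 were lower in siMk5 PA. Over all genes, 0.588% were higher in siErk3 BSA, 0.432% higher in siErk3 PA and 0.491% lower in siMk5 PA. The median log2 fold changes of the 12 were 1.68, 0.45, -0.13 and -0.855. Cmpk2 and Oas2 had the largest values in siErk3 BSA, at 2.81 and 2.67, and Ifit3, whose protein binds viral RNA complexes, the lowest in siMk5 PA, at -1.24. With PA all 12 were higher under each siRNA, with medians of 4.97, 3.85 and 4.17, where 15.5%, 15.8% and 15.1% of all genes were higher. These lists were known to move in these data when they were written, so their direction is no independent evidence.

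None of the other Jak-Stat regulators or gp130 genes tested was called against siNtc in either medium. Over all genes, only 0.0643% to 0.785% were called in these 4 comparisons, so a lack of calls does not set these lists apart. Of 15 other regulators of Jak-Stat signaling tested, 0 were called by the edgeR test in these 4 comparisons, with 1, 2, 1 and 4 at an unadjusted p under 0.05. With PA in siNtc, 30.6% of all genes were called. Of the 15, 4 were higher, Cish (1.16), the adaptor gene Sh2b3 (1.03), Trim8 (0.40) and Socs2 (0.39), and 2 were lower, the Stat inhibitor genes Pias3 (-0.66) and Pias1 (-0.50). Of 11 gp130 cytokine and receptor genes tested, whose receptors Socs3 restrains, 0 were called against siNtc, with 0, 5, 1 and 3 at an unadjusted p under 0.05. Between siErk3 PA and siMk5 PA, 1 was called, Il6, at 9.65 against 6.61 CPM (0.55 on the log2 scale, SE 0.13, adjusted p = 0.022 by the edgeR test). With PA, Il6 rose from 0.763 to 7.62 CPM in siNtc, from 1.06 to 9.65 CPM in siErk3 and from 0.983 to 6.61 CPM in siMk5, and Lifr, the receptor of leukemia inhibitory factor, fell from 227.5 to 99.1 CPM in siNtc.

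**Figure D4:**
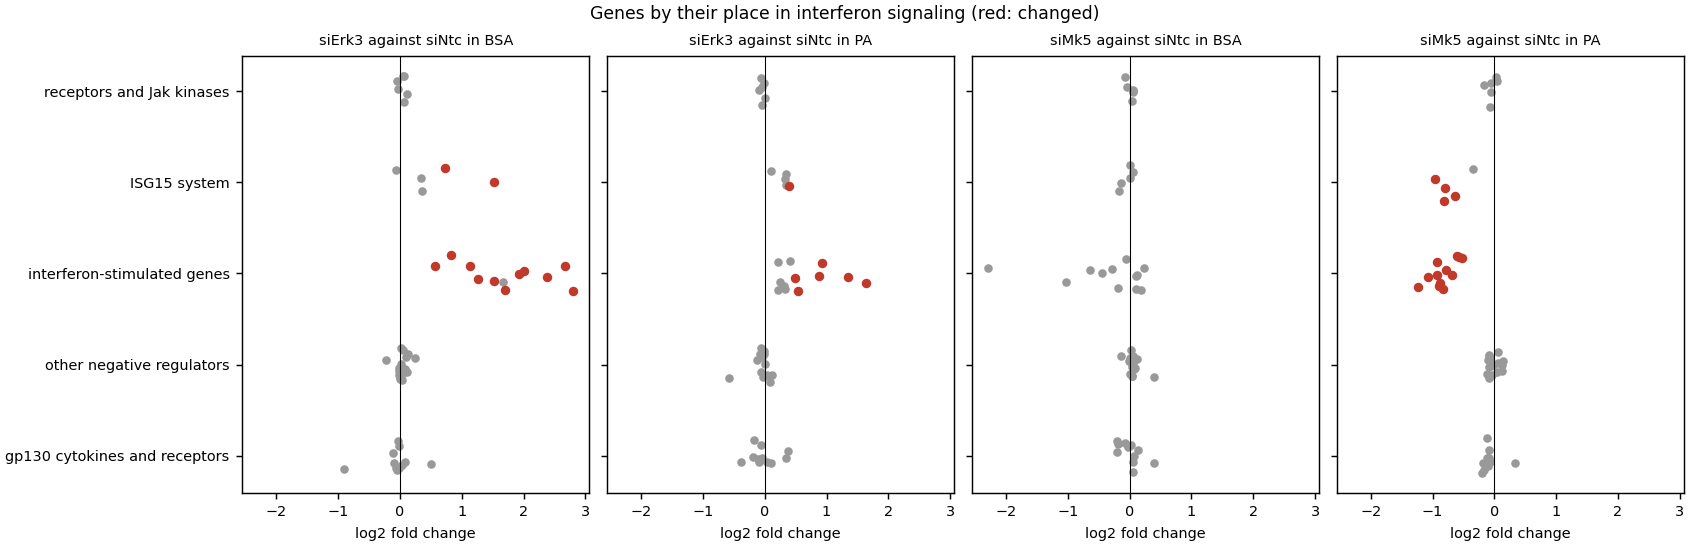
Log2 fold changes in the 4 silencing comparisons for the 4 receptor and 2 Jak genes described here and for 4 pathway lists; each point is a gene, red points were called, and vertical scatter is only for display. Red points lie among the ISG15 system and the interferon-stimulated genes, on the right in siErk3 and on the left in siMk5 PA. None lie among receptors and kinases, the other Jak-Stat regulators (labeled other negative regulators) or gp130 genes. Over all genes, 0.0643% to 0.785% were called in these comparisons.

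The genes whose log2 CPM followed each member most closely over the 18 libraries are given as a description, since the 18 points are 6 groups of libraries in 2 media. Usp18 had under 10 counts in 1 library. With genes of at least 5 counts in every library, a limit chosen after its values were seen, Irf7 (Pearson's r = 0.995), Apol9a and Ifi44 (both 0.994) came closest. Socs1 was followed most closely by Rnf213 (0.983), Mlkl (0.981) and Zdhhc18 (0.98), Ifnar1 by Septin6 (0.987), Epb41 (0.986) and Os9 (0.984), Ifnar2 by Cuta (0.978), Rrbp1 (0.963) and Fgfr1 (0.962), and Ifngr1 by Ikbip (0.972) and Ccn4 (0.971). Tyk2 (highest r 0.938), Socs3 (0.886), Ifngr2 (0.786) and Jak1 (0.777) had less close companions, in Mtln, AI467606, Ap2a2 and Trip12.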

How the data were processed

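RNA was measured in 18 libraries of C2C12 myotubes, grouped by the siRNA and medium in the sample labels. The authors deposited raw counts of read pairs per gene. Reads were checked and trimmed with FastQC 0.11.9, cutadapt 3.4 and TrimGalore 0.6.7 (quality limit 25) and aligned by STAR 2.7.9a to GRCm39. Per the file headers, featureCounts 2.0.0 used Ensembl 105 with strand setting 2 and a mapping quality of at least 3. The sample labels name mm10, but gene starts in the table match GENCODE M39 on GRCm39 within 1000 bases for 92.2% of genes, so coordinates are GRCm39. Pairs in exons of more than 1 gene on a strand were left uncounted, and pairs from near-identical genes can be mixed. A second deposited table holds log2 values of the counts divided by a factor per library plus 1 (largest relative deviation 3.6e-14) and served only for that check.

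Of 55414 genes, 21772 reached 10 counts summed over all libraries and entered the fit (R 4.3.3, limma 3.58.1, edgeR 4.0.16), by TMM normalization and a quasi-likelihood test with 1 coefficient per group. A gene was called at a Benjamini-Hochberg adjusted p under 0.05 and a fold change above 1.3, the criteria of the methods, which state DESeq2 1.34. No replicate pair of 18 differed by as little as sampling noise (chi-square per degree of freedom 2.75 to 50.07). Exact permutation of 3 against 3 libraries cannot give a p under 0.1 and was used only to see whether groups overlap. Total counts per library of 13041979 to 28496727 set the precision, which is lowest for Ifnb1, Mapkapk5 and Usp18 in BSA.

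Alternatives were DESeq2 1.42.0, its size factors, filterByExpr, no filter, the adjusted p alone, only the groups compared, the 18S share as a covariate, the replicate number as a block and leaving out each library. Named were all 10 members, the silenced genes, called genes of the pathway lists and the 3 genes most correlated with each member. Members and lists were chosen with earlier results of these data known. Promoters were read from GRCm39 with Python 3.11.15, numpy 2.4.6, pandas 2.3.3 and scipy 1.17.1, and figures were drawn with matplotlib 3.10.9. Protein sequences and proteomic data were not used here. The values of 2 genes and the upstream sequence of 1 gene are not reported here.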

Additional observations from a re-analysis of the deposited data

Results flagged for a closer look

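The response of Usp18 to PA differed between siErk3 and siNtc by a test of the difference itself: the interaction was -1.895 on the log2 scale (SE 0.32, adjusted p = 0.0407 by the edgeR quasi-likelihood test), from mean levels of 0.750 and 44.9 CPM in siNtc BSA and PA against 3.98 and 59.6 CPM in siErk3 BSA and PA. All 3 siErk3 BSA libraries were above all 3 siNtc BSA libraries, and the same held in PA. The smaller response was not particular to Usp18. Of the 12 interferon-stimulated genes, a list known to move in these data, 3 were called lower in this interaction and 0 higher, against 0.0367% of all genes called. Their median was -1.03 on the log2 scale, against -0.025 over all genes. The interaction missed the threshold under 6 of 20 alternatives, with filterByExpr and without any 1 of 5 single libraries, and its adjusted p by edgeR or DESeq2 reached 0.224 at most.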

How the results depend on the processing

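No direction of a called difference was reversed. Over the alternative fits of single members' differences, 1501 values stayed on their side of the threshold, 21 passed it and 11 lost it, of which 5 were for Usp18 in siErk3 PA and 6 for its interaction of siErk3 with PA. In siErk3 PA against siNtc PA the count of called members, 1, was 0 with filterByExpr and with DESeq2 and 0 to 1 when single libraries were left out (0 without siNtc PA library 1 or 2 or siErk3 PA library 2). With the adjusted p alone, PA against BSA called 8 members in siNtc, 8 in siErk3 and 6 in siMk5, and with the 18S share as a covariate 5 in siMk5. The interaction of siErk3 with PA gave 0 with filterByExpr and 0 to 1 when single libraries were left out. Without siNtc BSA library 1 or 3, siErk3 BSA library 1 or 2, or siErk3 PA library 2, its value for Usp18 lay between -1.945 and -1.61 with adjusted p-values of 0.0805 to 0.224 by the edgeR test. The interaction of siMk5 with PA gave 1, Usp18, without a filter. The cause of these changes was not tested.

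Over 12611 genes, the mean correlation of deviations between libraries with the same replicate number lay between -0.25 and 0.19 in the 9 comparisons. Single correlations lay between -0.38 and 0.32. Whether the replicate number marks a shared culture or batch was not tested. In a fit with this block, the counts were 1, 1, 0 and 1 in the silencing comparisons, 5, 5 and 2 in PA against BSA, 1 and 1 between siErk3 and siMk5, and 1 and 0 for the interactions, as without the block.

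Depth limits Ifnb1, with 7, 17 and 4 counts in the PA groups, and Usp18 in siNtc BSA, with 8 to 28 counts per library, most. Silencing is read here from RNA alone, Mapkapk5 is rare, and 3 libraries per group of 1 cell line bound what the tests can resolve. The authors report Western blots with efficient silencing of both targets, and less Erk3 protein after Mk5 silencing. Ifnb1 could not be fitted with filterByExpr, which dropped it.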
